A study of Mus musculus with 4 samples.

Results

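The muscarinic acetylcholine receptors and the proteins that make, carry and break down acetylcholine were followed in extracts of mouse ear. The genes were taken by name. They are the 5 muscarinic receptors Chrm1, Chrm2, Chrm3, Chrm4 and Chrm5, the 2 cholinesterases Ache and Bche, the synthetic enzyme Chat, the vesicular transporter Slc18a3 and the choline transporter Slc5a7. Every non-control probe whose target transcript carries one of these names was used, which gave 13 probes for 10 genes, out of 20971 genes with a named probe. All 13 probes had a ratio on at least 3 arrays and were tested, among 17962 genes tested in all.

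The samples were 4 two-colour arrays of 1 slide. Each carried an extract from a DEP-treated ear, given by its source name as Cy5 (red), and one from an untreated control ear, given as Cy3 (green). DEPs are diesel exhaust particles. All mice were male BALB/c animals between 6 and 10 weeks old, the exposed ones inhaled DEPs for 1 h a day on 5 days, and they were killed on day 14. The harvested piece was the temporal bone area with the middle ear, so bone, muscle, nerve and mucosa could all contribute RNA. In such bulk extracts, fewer cells of a type and less RNA per cell cannot be told apart. The number of mice behind an extract is not given in the sources used here, although the labels call the arrays biological replicates. The dyes were not swapped, so a dye preference of a probe and an effect of DEPs cannot be told apart. Apart from the source names, the labels enter both treatments for the red channel. Group names therefore rest on the source names alone, and the channels are written as labelled DEP and labelled control.

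Acetylcholine is made from choline and acetyl-CoA by choline acetyltransferase, packed into vesicles by the transporter that Slc18a3 encodes, and released from parasympathetic and motor nerve endings and from some non-neuronal cells, airway epithelium among them. Acetylcholinesterase at the synapse and butyrylcholinesterase in plasma and tissue split it, and the transporter encoded by Slc5a7 returns the choline to the nerve ending. Muscarinic receptors are coupled to G proteins. Chrm1, Chrm3 and Chrm5 act through Gq and phospholipase C, whereas Chrm2 and Chrm4 act through Gi and lower cyclic AMP. In mucosa these receptors are known for driving gland secretion and smooth muscle contraction, and in autonomic ganglia Chrm1 takes part in slow transmission.

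The upstream sequences of both cholinesterase genes are shown first because the values below turn on these enzymes, which split the same substrate. They were taken from the RefSeq promoter table of build GRCm38.p6, which held 9 of the 10 genes, with 250 bases before and 50 bases after the annotated start. Capitals mark the letters GCGTG on either strand, the core to which the aryl hydrocarbon receptor, a sensor of combustion products, is known to bind. Ache lies at chr5:137288004-137288303 on the plus strand and Bche at chr3:73708366-73708665 on the minus strand.
Ache: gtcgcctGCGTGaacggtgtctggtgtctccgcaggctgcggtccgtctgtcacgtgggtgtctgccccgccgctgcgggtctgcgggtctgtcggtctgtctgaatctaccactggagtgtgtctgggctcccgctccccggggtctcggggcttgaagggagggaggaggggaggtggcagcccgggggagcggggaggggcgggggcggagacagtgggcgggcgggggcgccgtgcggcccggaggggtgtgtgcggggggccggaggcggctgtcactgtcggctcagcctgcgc
Bche: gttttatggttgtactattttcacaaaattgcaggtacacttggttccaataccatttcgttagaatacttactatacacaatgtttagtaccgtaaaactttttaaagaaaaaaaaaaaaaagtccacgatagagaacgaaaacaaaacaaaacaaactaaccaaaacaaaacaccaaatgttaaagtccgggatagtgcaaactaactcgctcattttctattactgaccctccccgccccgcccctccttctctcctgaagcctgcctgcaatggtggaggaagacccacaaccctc
The Ache window was 74.0% G and C with 1 match, which starts at position -243 from the gene start. That of Bche was 39.3% G and C with 0 matches, where the median of all promoters in the table was 52.7%. The letters GCGTG were found in 5 of the 9 windows (Ache, Chat, Chrm2, Chrm3 and Chrm4) and in 32.4% of all 32851 windows of this length. The letters TGACNNNGC of the antioxidant response element, searched on both strands, were found in 0 of the 9 and in 12.4% of all, so that no matches of these motifs overlapped. A match describes the sequence and says nothing of binding.

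How well these genes could be measured differed widely. Chrm4, Ache, Bche and Slc18a3 were well above background, by the image software's own call, in both extracts of each of the 4 arrays, as were 79.5% of the 17962 genes tested. Such genes are called fully measured. Chrm1, Chrm3 and Slc5a7 were measured in both channels on 2 arrays each, as the brighter probe where a gene had several. Chrm2 and Chat were well above background in the control channel of 1 array and in no DEP channel, and Chrm5 in neither channel of any array. The precision of a ratio follows its signal. Among 399 probes printed 10 times on each array, the median SD of the log2 ratio between spots was 0.41 at signals of 10 to 30, 0.18 at 30 to 100, 0.08 at 100 to 300 and 0.04 at 300 to 1000. Most receptor signals lay at or below the first 2 of these ranges, and most of those of the cholinesterases in the last 2.

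**Figure D1:**
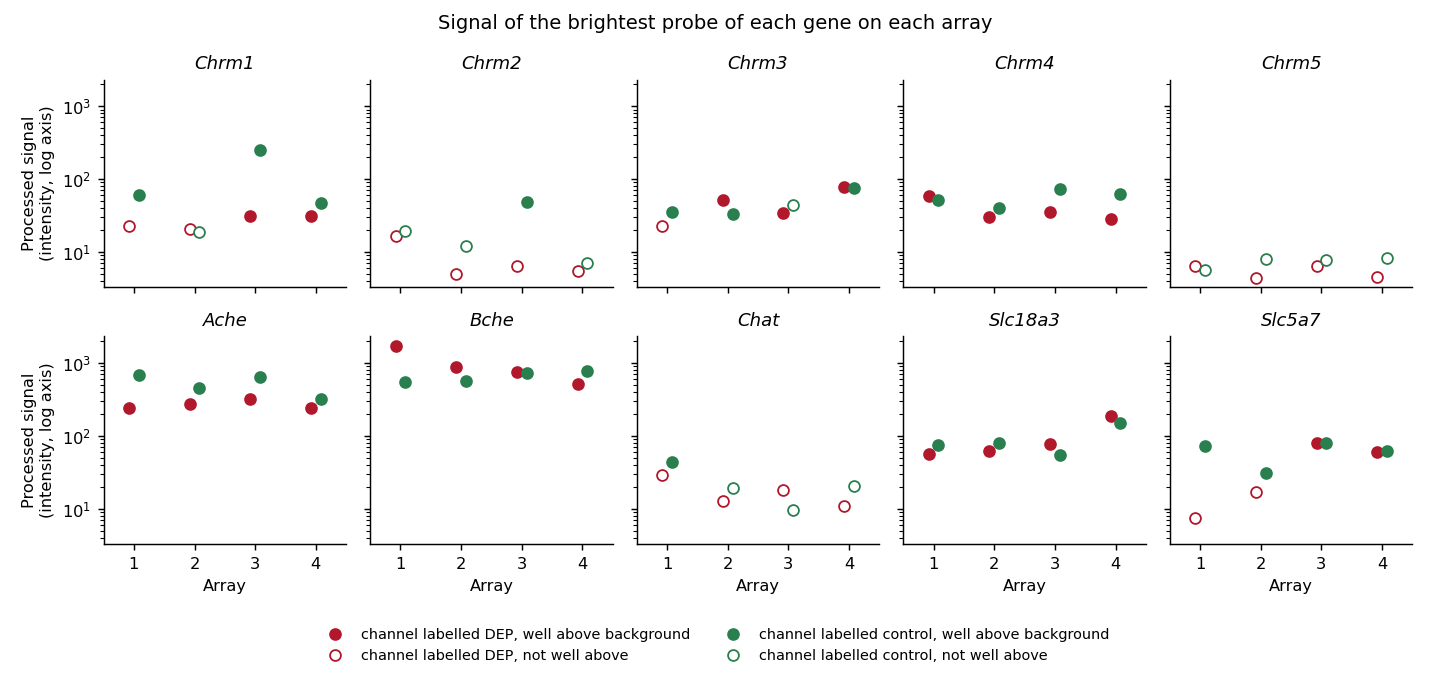
Processed signal (intensity, logarithmic axis) of the brightest probe of each gene on arrays 1 to 4, red for the channel labelled DEP and green for the channel labelled control, filled where the spot was well above background. Ache is lower in the DEP channel on all 4 arrays, Bche goes from 1711 against 551 on array 1 to 513 against 782 on array 4, and Chrm5 is open throughout; levels of different probes cannot be compared.

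Ratios are given on the log2 scale as the DEP-labelled over the control-labelled channel, so that a negative value is a lower signal under the DEP label. With this orientation the mean Chrm1 ratio is negative, which is the opposite of the direction that the study gives for this receptor. Of the 10 genes, each by its brightest probe, 8 had a mean ratio below 0 and 2 above, and the median was -0.63. Of the 4 fully measured members, 2 lay below 0 and 2 above, with a median of -0.31. Over all genes tested the median was 0.04 and 44.7% lay below 0. A mean beyond 2-fold lower was found for 3 members, Chrm1, Chrm2 and Slc5a7, beside 4.06% of all genes. Each of these 3 lacked a measured signal in at least 1 extract, and without array 3 the count was 1. A mean beyond 2-fold higher was found for 0 members and for 2.15% of all genes.

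No member passed limma's moderated test after Benjamini-Hochberg adjustment over 31577 probes, and 0 of 17962 genes did (0%), the smallest adjusted p being 0.0922. Before adjustment, 2997 genes had a p under 0.05 in either direction, and ordinary least squares also gave 0 genes after adjustment. Ache and Chrm5 were the 2 members with an unadjusted p under 0.05, both lower, beside 7.50% of all genes. With these 4 arrays, p-values measure the spread between arrays.

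**Figure D2:**
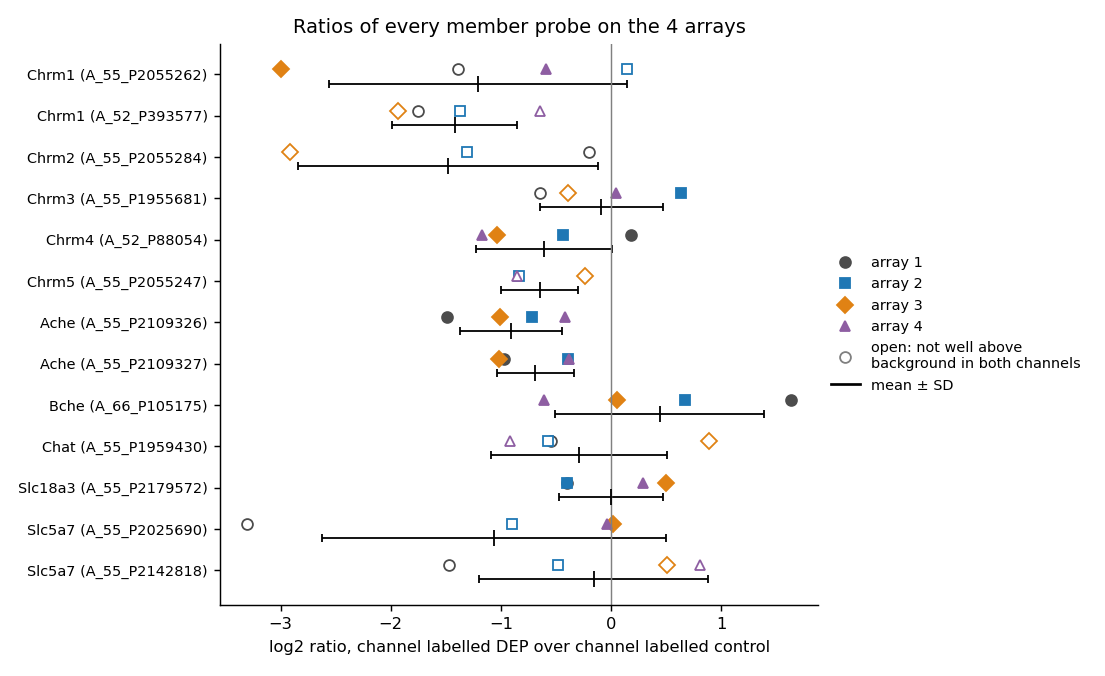
log2 ratios (DEP-labelled over control-labelled channel) of all 13 probes, one symbol per array, open where the spot was not well above background in both channels, with the mean and SD in black. Both Ache probes lie below 0 on all 4 arrays, from -1.49 to -0.38, while the Bche probe spans 1.63 to -0.61.

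Ache, which encodes the esterase that ends transmission at cholinergic synapses, was the one fully measured member with a lower signal under the DEP label on every array. Its brighter probe (A_55_P2109326) gave DEP signals of 239, 276, 322 and 238 on arrays 1 to 4 against control signals of 671, 454, 647 and 318. Each DEP signal was below the control signal of its own array, and across arrays the ranges overlapped only in the DEP extract of array 3 and the control extract of array 4. The ratios were -1.49, -0.72, -1.01 and -0.42, with a mean of -0.91 ± 0.46 (SD, n = 4) and a 95% interval of -1.43 to -0.39, or 1.88-fold more in the control. The unadjusted p was 0.00650 by limma and the adjusted p 0.154, and the exact two-sided sign-flip permutation over the 4 arrays gave 0.125, the smallest that 4 ratios allow.

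A second Ache probe (A_55_P2109327), aimed at the same transcript and so no further replicate, had ratios of -0.97, -0.39, -1.02 and -0.38. Its mean was -0.69 ± 0.35 (SD, n = 4), 1.62-fold more in the control, with an adjusted p of 0.167 by limma. It differed from the first probe by 0.22 ± 0.25 on average, with an exact sign-flip p of 0.250. Ratios below 0 on all 4 arrays were found for 1463 of 14275 fully measured genes with 4 ratios (10.2%), and an unadjusted p under 0.05 in this direction for 5.86% of the 14281 fully measured genes, so the Ache pattern was shared by many genes.

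Bche encodes butyrylcholinesterase, which splits acetylcholine and other choline esters. On arrays 1 to 4 its DEP signals were 1711, 889, 754 and 513 and its control signals 551, 559, 728 and 782. It was higher under the DEP label on arrays 1 and 2, close to equal on array 3 and lower on array 4, so the channels overlapped. The ratios of 1.63, 0.67, 0.05 and -0.61 had a mean of 0.44 ± 0.95 (SD, n = 4), with an interval of -0.55 to 1.42 and an adjusted p of 0.563 by limma. The SD of these ratios was larger than that of 91.6% of the fully measured genes. Without array 1 the mean was 0.04 and without array 4 it was 0.78.

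The 2 cholinesterases can be set against each other within each array, as a difference of log2 ratios. Bche minus Ache was 3.13, 1.38, 1.06 and -0.19 on arrays 1 to 4, above 0 on 3 of 4 arrays, with a mean of 1.34 ± 1.37 (SD, n = 4). The exact sign-flip permutation gave p = 0.250, where the smallest p that 4 differences allow is 0.125, so this test could not have passed 0.05. The mean was smaller than the SD between arrays.

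Among the receptors, Chrm4, an inhibitory Gi-coupled subtype, was the one measured in both channels throughout. Its DEP signals were 59.2, 29.9, 35.5 and 28.2 and its control signals 52.1, 40.5, 72.7 and 63.2. Array 1 had the higher signal under the DEP label and the other 3 arrays under the control label. The ratios of 0.18, -0.44, -1.04 and -1.17 had a mean of -0.61 ± 0.62 (SD, n = 4), an interval of -1.28 to 0.05 and an adjusted p of 0.293 by limma. After normexp background correction the mean was -0.25 with loess and -0.35 with median centring.

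Chrm1, the Gq-coupled receptor of glands, ganglia and forebrain neurons, rested on 1 array more than on the others. Its brighter probe (A_55_P2055262) had DEP signals of 22.9, 20.8, 30.9 and 31.7 and control signals of 60.2, 18.8, 247 and 47.6. The control extract of array 3 stood above all other extracts, and the DEP signals of arrays 1 and 2 and the control signal of array 2 were not well above background. The ratios were -1.39, 0.14, -3.00 and -0.59, with a mean of -1.21 ± 1.35 (SD, n = 4), an interval of -2.58 to 0.16 and an adjusted p of 0.305 by limma. Without array 3 the mean was -0.61. Signals of the second Chrm1 probe (A_52_P393577) lay between 3.44 and 21.3, and in no extract were they well above background. Its ratios of -1.75, -1.37, -1.93 and -0.65 averaged -1.42 ± 0.57 (SD, n = 4), with an unadjusted p of 0.00201 and an adjusted p of 0.114 by limma, and describe unmeasured levels.

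Chrm2, the receptor that slows the heart and restrains acetylcholine release from nerve endings, had 1 spot well above background, the control of array 3 at 48.8, where the DEP signal was 6.48. Its ratios were -0.20, -1.31 and -2.91 on arrays 1 to 3, with none on array 4. Because no DEP extract gave a measured signal and the control channel averaged below the limit of measurement, no fold is given. Chrm3, the main receptor of gland secretion and smooth muscle contraction, had DEP signals of 22.7, 51.2, 34.1 and 76.9 and control signals of 35.6, 33.2, 44.8 and 74.8. These overlapped, and the ratios of -0.65, 0.63, -0.39 and 0.04 averaged -0.09 ± 0.56 (SD, n = 4; interval -0.70 to 0.52). Chrm5 stayed between 4.42 and 8.25 in all 8 extracts. Its mean of -0.65 ± 0.35 (n = 3) is therefore a ratio of signals not well above background, whatever its unadjusted p of 0.0274 by limma.

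The 3 genes that define a cholinergic nerve ending all had ratios below 0 on arrays 1 and 2 and above 0 on array 3. On array 4 their signs differed, and of the 3 only Slc18a3 was fully measured. Slc18a3, the vesicular acetylcholine transporter, was measured throughout, with DEP signals of 56.3, 61.0, 76.4 and 185 and control signals of 74.2, 80.4, 53.9 and 150. Array 4 was the highest in both channels. The ratios of -0.40, -0.40, 0.50 and 0.29 averaged 0.00066 ± 0.47 (SD, n = 4), and the interval of -0.53 to 0.53 gives the sizes of change that these arrays could not exclude.

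Slc5a7, the high-affinity choline transporter of nerve endings, had DEP signals of 7.40, 16.8, 79.3 and 60.1 and control signals of 73.0, 31.2, 78.3 and 61.9. Arrays 3 and 4 were near equal in both channels, while the DEP extracts of arrays 1 and 2 were not well above background. Ratios of -3.30, -0.90, 0.02 and -0.04 gave a mean of -1.06 ± 1.56 (SD, n = 4) with an adjusted p of 0.399 by limma, and without array 1 the mean was -0.31. After normexp it was -0.18 with loess and -0.25 with median centring. The second Slc5a7 probe (A_55_P2142818) was not well above background in any extract and averaged -0.16 ± 1.04.

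Chat, choline acetyltransferase, had 1 spot well above background, the control of array 1 at 43.0 against 29.3 under the DEP label. Its ratios of -0.55, -0.57, 0.89 and -0.92 averaged -0.29 ± 0.80 (SD, n = 4), and no fold is given. The mean was -0.68 without array 3 and -0.08 without array 4. In the RefSeq annotation the Slc18a3 gene lies inside the Chat gene, and the ratios of the 2 genes had the same sign on arrays 1, 2 and 3 and the opposite sign on array 4.

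Genes around the receptors were read from lists of related function. The nicotinic receptor subunits, the ion channels that acetylcholine opens at ganglia and muscle, had 14 genes with a ratio, 7 lower and 7 higher, with a median of 0.04. The subunits Chrna5 and Chrnb3 had no ratio on enough arrays. Chrnb2, the subunit of the main neuronal receptors, had DEP signals between 66.4 and 73.2 on all arrays beside control signals of 532, 444, 141 and 48.8. Its mean was -1.56 ± 1.57 (SD, n = 4), with an adjusted p of 0.276 by limma. Chrnb4, the ganglionic subunit, averaged -0.67 ± 0.84 and Chrna6 -0.49 ± 0.82. These 3 were named for the size of their mean among fully measured subunits. Over the 14 subunits, 2 genes were beyond 2-fold lower and 1 higher, beside 4.06% and 2.15% of all genes. An unadjusted p under 0.05 by limma was found lower for 0 subunits and higher for 2, beside 7.50% and 9.18% of all genes, and 0 passed after adjustment.

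The signalling partners of muscarinic receptors had 18 genes with a ratio, 14 lower and 4 higher, with a median of -0.26, where 44.7% of all genes lay below 0. Beyond 2-fold, 4 were lower and 0 higher, beside 4.06% and 2.15% of all genes. At an unadjusted p under 0.05 by limma, 5 were lower and 1 higher, beside 7.50% and 9.18%, and 0 passed after adjustment. The array medians of this list were -0.57, -0.26, -0.17 and 0.15, beside -2.40, -1.47, -0.61 and 0.30 for 12 neuron markers, whose part in it was not tested. Plcb4, a phospholipase C that Gq activates, was lower on 4 of 4 arrays at -0.50, -0.53, -1.18 and -0.76, with a mean of -0.74 ± 0.31 (SD, n = 4), an unadjusted p of 0.00492 and an adjusted p of 0.145 by limma. Gnao1, a G protein alpha subunit abundant in neurons, averaged -1.51 ± 1.37. It stood at -2.92 on array 1 and was above 0 on array 4.

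For the lists that follow, 44.7% of all genes tested lay below 0. Of 7 genes of choline supply, 5 were lower and 2 higher, with a median of -0.09. The transporter-like proteins Slc44a4, Slc44a3 and Slc44a2 averaged -0.56 ± 0.68, 0.32 ± 0.56 and 0.21 ± 0.30. Of 7 cholinesterase anchors and receptor helpers, 5 were lower and 2 higher, with a median of -0.21. Colq, the collagen tail that holds acetylcholinesterase at the muscle synapse, averaged -0.70 ± 0.67 beside the Ache mean of -0.91. Ric3, a chaperone of nicotinic receptors, averaged -1.19 ± 1.39. Musk, the kinase that organises the muscle endplate, was higher under the DEP label on 4 of 4 arrays, with a mean of 0.57 ± 0.36 (SD, n = 4) and an adjusted p of 0.207 by limma. Its unadjusted p by limma was 0.0209, and 9.18% of all genes had one under 0.05 in this direction. The share of genes higher on all 4 arrays was not counted. Of 4 transcription factors of cholinergic neurons with a ratio, 3 were lower and 1 higher, with a median of -0.72. Isl1, which helps to specify motor and autonomic neurons, averaged -0.32 ± 0.66, and Phox2a -1.13 ± 1.91.

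**Figure D3:**
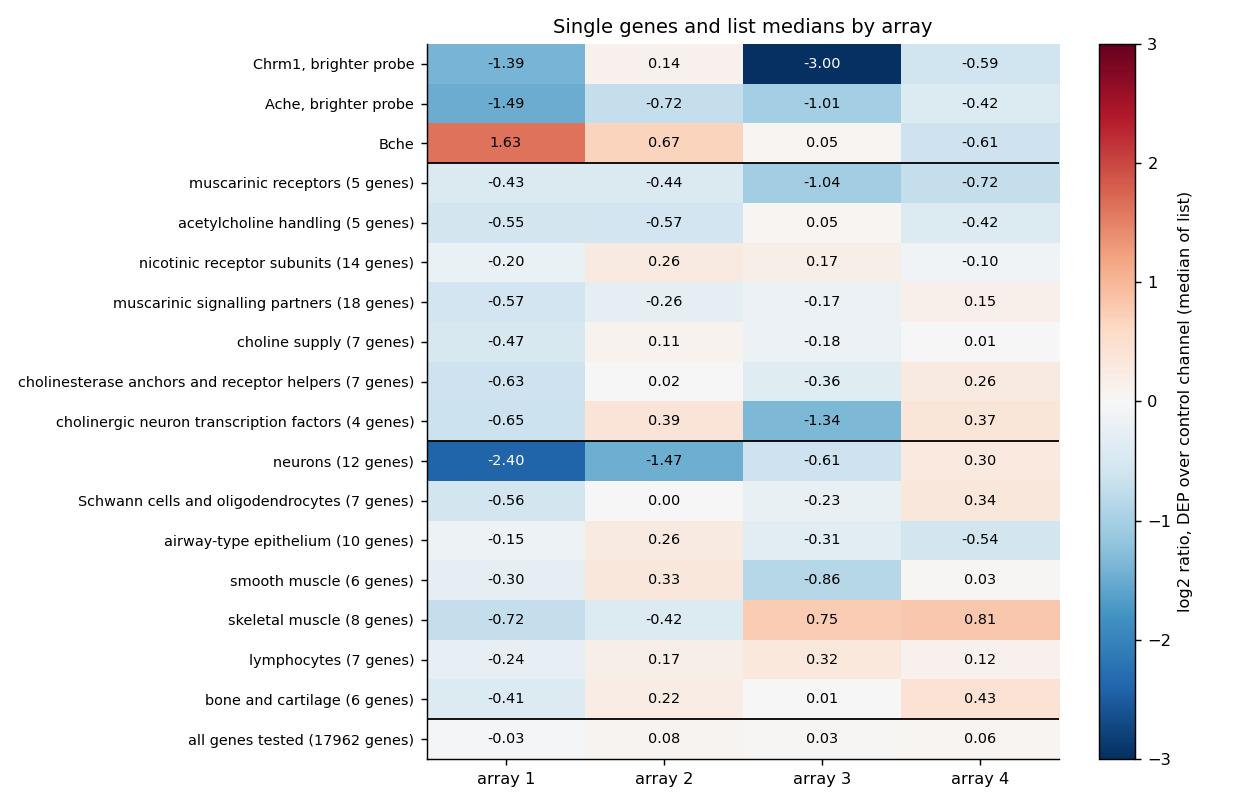
log2 ratios (DEP-labelled over control-labelled channel) on arrays 1 to 4 for Chrm1, Ache and Bche and the medians of each gene list, with the number of genes having a ratio. The neuron markers run from -2.40 on array 1 to 0.30 on array 4, the skeletal muscle markers from -0.72 to 0.81, and the median of all genes stays between -0.03 and 0.08.

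Markers of the cell types in the extracts moved between arrays as well. The 12 neuron markers were lower on average in 12 of 12 genes, with a median of -1.15 and array medians of -2.40, -1.47, -0.61 and 0.30. Their summed signal ranged from 19870 to 33313 in the channel labelled DEP and from 24638 to 84429 in the channel labelled control, and 11 of the 12 were fully measured. The Ache ratios on the same arrays were -1.49, -0.72, -1.01 and -0.42, so that arrays 1 and 4 held the extremes of both, while arrays 2 and 3 had the opposite order. Chrm1 had its lowest ratio on array 3. The part of the neuron markers in the values of Ache, Slc5a7, Chrnb2 and Gnao1 was not tested.

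Skeletal muscle markers had a median of 0.12 over 8 genes and array medians of -0.72, -0.42, 0.75 and 0.81. Their summed signal ranged from 324239 to 569395 in the DEP channel and from 269291 to 899688 in the control channel. Airway-type epithelium, with a median of -0.02 over 10 genes, smooth muscle with -0.19 over 6, Schwann cells and oligodendrocytes with -0.12 over 7, lymphocytes with 0.05 over 7 and bone and cartilage with 0.03 over 6 had medians within the range from -0.19 to 0.05. Single arrays differed more. Smooth muscle went from -0.86 on array 3 to 0.33 on array 2, and airway-type epithelium from -0.54 on array 4 to 0.26 on array 2. Array medians ran from -0.56 to 0.34 for Schwann cells and oligodendrocytes. They ran from -0.24 to 0.32 for lymphocytes and from -0.41 to 0.43 for bone and cartilage. All epithelial markers were well above background in the DEP channel and 9 of 10 in the control channel on all arrays, and bone and cartilage markers in 6 of 6. The defining markers of ear mucosa and bone were thus present. The part of muscle in the Ache and Colq values was not tested.

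The high Chrm1 signal in the control extract of array 3 stood beside genes of autonomic ganglia and of catecholamine synthesis, a list put together after their values were seen. Th, tyrosine hydroxylase, was 21460 in that extract and between 481 and 1566 in the other control extracts. Dbh, dopamine beta-hydroxylase, was 28468 there and 7.41 to 14.1 in the other control extracts, with 2925 in the DEP extract of the same array. Both enzymes take part in noradrenaline synthesis. Phox2a, a transcription factor of autonomic neurons, was 3677 there and between 37.3 and 102 elsewhere in the control, Chrnb4 was 596 against 55.7 to 108, and the decarboxylase Ddc was 14103 against 234 to 804.

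**Figure D4:**
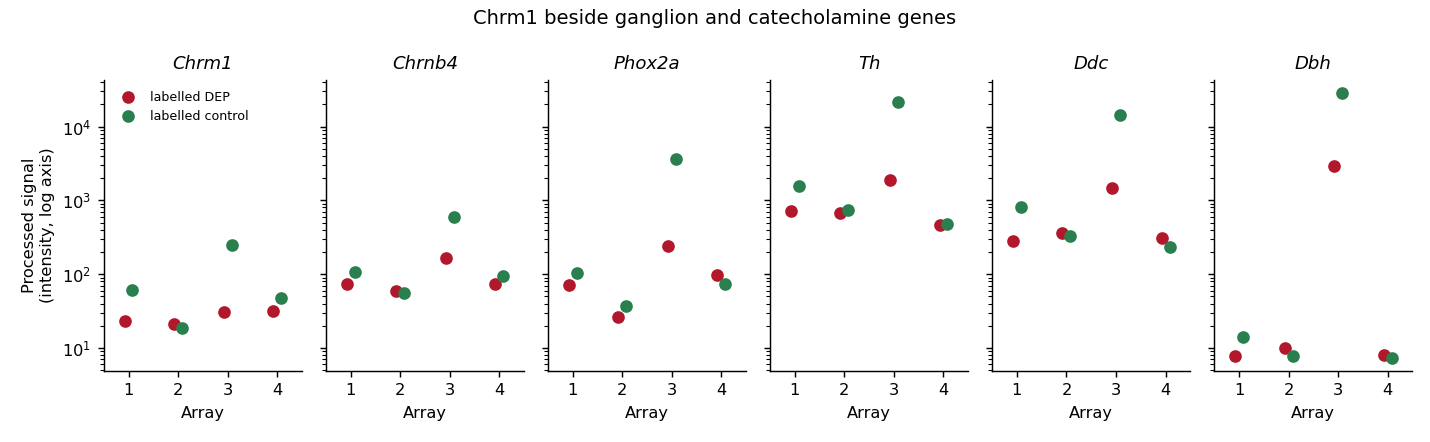
Processed signals (intensity, logarithmic axis) of Chrm1, Chrnb4, Phox2a, Th, Ddc and Dbh on arrays 1 to 4, red for the channel labelled DEP and green for the channel labelled control. In each panel the control extract of array 3 is the highest point, at 247 for Chrm1 and 28468 for Dbh.

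The same extract held the one Chrm2 spot well above background, and 98.0 for the ganglionic subunit Chrna3, which was not well above background in any DEP extract. Other transmitter genes of the same extract were Slc18a2, the vesicular monoamine transporter, at 1895, and the transcription factor Hand2 at 769. In the DEP extract of array 3 these were at 155 and 33.7, not above the other DEP extracts. Slc18a3 was at 53.9 in the control extract of array 3, the lowest of its 4 control signals, and Chat was not well above background there. The part of these cells in the Chrm1 and Chrm2 ratios was not tested, and the mean Chrm1 ratio without array 3 is -0.61. Without that array no Chrm2 spot was well above background in either channel.

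The genes whose 4 ratios were most like those of a member were found among about 14275 fully measured genes by the root mean square difference of the log2 ratios, over 4 arrays. Nearest to Chrm1 were Lyz1 at 0.33, Th at 0.41 and Ddc at 0.51, with Th at -1.14, -0.13, -3.49 and -0.04. Chrm1 itself was not fully measured, and its ratios on arrays 1 and 2 include signals not well above background. The closest to Ache were Ccdc149 at 0.098, Id4 at 0.16 and Npdc1 at 0.18. For Bche they were Arhgap8 at 0.063, Nectin2 at 0.10 and Abhd17c at 0.11, for Chrm4 Zbtb38 at 0.13, Olfr1349 at 0.17 and Ap1ar at 0.18, and for Slc18a3 Taf9 at 0.064, Dupd1 at 0.067 and Ppm1d at 0.085. With 4 ratios per gene and this many genes, close neighbours are found for most patterns, and the match is a description of these arrays.

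The member means were also computed under other processing. Both Ache probes kept their direction in all alternatives, the brighter one between -1.07 and -0.58 with adjusted p-values from 0.0709 to 0.398. Chrm1 was at -0.52 after normexp background correction with loess normalization, which changed both steps at once, and at -1.66 without array 2. The count of members beyond 2-fold was 0 in place of 3 after normexp (offset 50) with either loess or median centring, which each replaced the deposited background correction and dye normalization together.

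**Figure D5:**
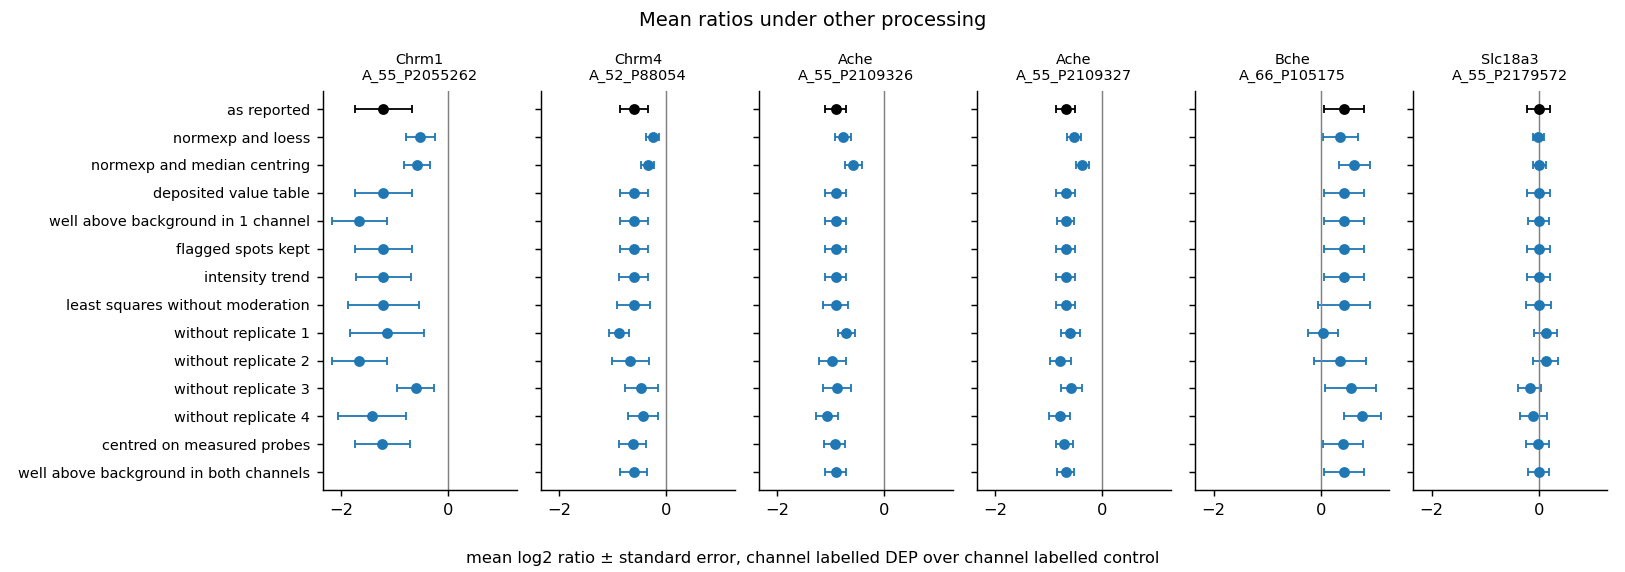
Mean log2 ratio (DEP-labelled over control-labelled channel) with its standard error for 6 probes, as reported (black) and under other processing (blue). Both Ache probes stay below 0 in every setting, Bche above 0 from 0.04 to 0.78, and Slc18a3 lies on both sides of 0.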

How the data were processed

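The authors hybridised 4 two-colour arrays and quantified them with Agilent Feature Extraction 10.10.1.1. The deposited processed intensity is background-subtracted and dye-normalized, and the deposited log10 ratio is Cy5 over Cy3. A table of the authors' log10 ratios was used as an alternative. Per array, 60.5% to 70.0% of non-control spots in a channel were well above background. The small number of arrays limits the precision.

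The deposited log10 ratios were converted to log2. Flagged spots and spots without a ratio (ratio 0) were left out, spots of a probe were averaged, and 3 ratios were needed. Accessions were named with the RefSeq table of GRCm38.p6 (27655 of 39429 probes). The probe with the highest mean signal stood for its gene. An intercept was fitted with limma 3.58.1 in R 4.3.3 (lmFit, eBayes), two-sided, over 31577 probes. The fit was tested on simulated data. Summaries were made with Python 3.11.15, pandas 2.3.3 and scipy 1.17.1. The members, lists and alternatives were chosen with earlier results of these data known. In related lists, the 3 fully measured genes with the largest size of mean ratio, in either direction, were named, except that some items are not reported here. Alternatives were normexp with an offset of 50 and loess or median centring, the deposited table, filters on background, flagged spots kept, an intensity trend, least squares, the mean of a gene's probes and leaving out each array. Centring on measured probes and list medians over measured genes were added after seeing the data.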

Additional observations from a re-analysis of the deposited data

Results flagged for a closer look

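In 35 values of the member and related probes with 4 arrays, ratios were tested for 1 array standing apart by Dixon's criterion, which chance passes in about 1 in 20. This was met by 0 of them.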

How the results depend on the processing

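Of 156 values of member probes under 13 alternatives, 147 kept their direction and their side of the threshold. Several alternatives could hardly turn a direction. An intensity trend and least squares leave the mean as it is, and the deposited table holds nearly the same ratios. Keeping flagged spots left every member mean unchanged. The mean of Chrm3 turned to 0.09 without replicate 1 and 0.0061 without replicate 3 (leave-one-out range -0.33 to 0.09). That of Slc18a3, 0.00066 as reported, was -0.0047 after normexp and loess, -0.02 centred on measured probes, -0.17 without replicate 3 and -0.10 without replicate 4 (range -0.17 to 0.13). The second Slc5a7 probe was 0.28 without replicate 1 (range -0.48 to 0.28). With normexp and median centring, 2 probes passed limma's test, Chrm5 (-0.39, adjusted p 0.0401) and the second Chrm1 probe (-0.50, adjusted p 0.0494), neither well above background on any array. The share of all probes that passed in this setting is not given here, so no excess among members can be read from these 2.

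The count of all genes beyond 2-fold, 1116 of 17962 with 65.4% lower, was 388 after normexp and loess (81.7% lower) and 479 after normexp and median centring (37.4% lower). Over probes well above background in both channels it was 574 of 14839 genes (77.9% lower). Leaving out 1 array gave 780 to 1846, the latter without replicate 4. The member count of 3 was 0 of 10 genes after normexp with either loess or median centring. Over probes well above background in both channels only 4 members were left. Chrm1, Chrm2 and Slc5a7 were not among them, so the count of 0 there was fixed by the filter. With 1 array left out the member count was 1 to 4, the lowest without replicate 3. The median of the muscarinic receptors, -0.65, was -0.19 after normexp and loess, -0.35 after normexp and median centring and -0.88 to -0.54 with 1 array left out. The median of acetylcholine handling, -0.29, was -0.04 after normexp and loess, 0.00066 over genes or probes measured in both channels and -0.68 to -0.10 with 1 array left out, the former without replicate 3. The cause was not tested. No paired analysis was possible because there is no second group with the same replicate numbers; the pairing of extracts within an array is already part of each ratio. Signals of Chrm2, Chrm5 and Chat near background limit what these arrays can show.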
